A study of Mus musculus with 9 samples.

Results

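The cytosolic ribosomal protein genes are described here across mouse kidneys of 3 Nfkb1 genotypes. They were taken by name from the deposited count table as the protein-coding rows called Rpl, Rps or Rplp plus a number, or Rpsa, without the S6 kinase genes and without rows named as pseudogenes. This gave 86 of the 52636 rows, of which 33 carry 40S names and 52 carry 60S names. The remaining row, Rps19bp1, fits the name pattern but encodes a protein that binds Rps19 and is no ribosomal subunit. A total of 84 of the 86 passed the filter on low counts and were tested. The other two were Rpl10l, with 0 reads, and Rpl39l, with 3 reads over all libraries.

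RNA sequencing of total kidney RNA was compared between 3 libraries of the C59A knock-in, 3 of the C59S knock-in and 3 of wild type (WT). Both knock-ins change the codon of the same cysteine in the DNA-binding region of p50, the NF-kB subunit made from Nfkb1, to alanine or serine by name, and both carry a PGK-neo selection cassette in a neighbouring intron that WT mice lack. They derive from C57BL/6NTac embryonic stem cells. In the labels the words activated and inactivated go with C59A and C59S in that order, but their effects on DNA binding are listed in the other order, so neither allele is called active here. No age, sex, litter or batch is labelled, and nothing says whether libraries of a genotype came from separate mice. The p-values therefore reflect the spread between these libraries, which may be technical.

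The cytosolic ribosome is built from a small 40S subunit, which reads the messenger RNA, and a large 60S subunit, which joins amino acids and passes the new chain through an exit tunnel. Their proteins are imported into the nucleolus and assembled there with the ribosomal RNAs. Most of their messenger RNAs begin with a run of pyrimidines, the 5′ terminal oligopyrimidine (TOP) motif, through which mTOR signalling and Larp1 control their translation. Ribosomal protein genes have also left many intron-less copies, processed pseudogenes, across the mouse genome. NF-kB is a transcription factor family in which p50 pairs with other subunits at sites in target promoters.

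The start sites of 6 members are printed, 4 with this motif and 2 without it. Each window runs from 30 bases before to 15 bases after a RefSeq start on GRCm38.p6. The RefSeq start nearest to that of the gene's principal transcript in the GENCODE M21 annotation was used. Capitals mark a pyrimidine run, defined as C followed by at least 4 C or T that begins within 5 bases of the RefSeq start. The 2 starts lay from 0 (Rps27l) to 45 bases (Rps6) apart for the printed members, and 769 bases apart for Rps10, so runs at other starts are missed. Rps6, the 40S protein phosphorylated by S6 kinases, is at chr4:86857353-86857397 on the minus strand. Rps18, a protein of the 40S head, is at chr17:33955651-33955695 on the minus strand, and Rpl13a, a 60S surface protein, at chr7:45128731-45128775 on the minus strand. Rps27l, a paralog of Rps27 that p53 induces, is at chr9:66946056-66946100 on the plus strand. Rpl3l, the striated-muscle paralog of Rpl3, at chr17:24727796-24727840 on the plus strand, and Rps19bp1, at chr15:80264292-80264336 on the minus strand, had no such run.
Rps6: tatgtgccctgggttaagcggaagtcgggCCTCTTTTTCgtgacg
Rps18: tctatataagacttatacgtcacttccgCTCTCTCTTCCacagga
Rpl13a: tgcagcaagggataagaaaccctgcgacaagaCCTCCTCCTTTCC
Rps27l: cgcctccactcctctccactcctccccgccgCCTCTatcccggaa
Rpl3l: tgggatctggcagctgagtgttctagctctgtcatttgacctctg
Rps19bp1: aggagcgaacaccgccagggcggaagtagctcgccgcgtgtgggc

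Of the members, 66 matched a RefSeq promoter by gene symbol, chromosome and strand. A pyrimidine run at the start was found in 28 of the 66 (42.4%), against 18.7% of 16226 other protein-coding promoters. In windows of 250 bases before to 50 bases after the start, searched on both strands, the ETS core CTTCCG was found in 65.2% of members and 22.1% of the others. The YY1 core AAGATGG was in 13.6% of members and 6.46% of the others, while the E-box CACGTG (7.58% and 8.12%) and TATAAA (9.09% and 12.8%) were in similar shares of both. A loose form of the NF-kB site, GGG followed after 5 bases by CC, was in 59.1% of members and 58.1% of the others. These matches describe letters only and do not show binding.

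Per length, most members were abundant and a few were nearly silent. The deposited FPKM (fragments per kilobase of gene, scaled to library depth) was highest for Rplp1, which together with Rplp0 and Rplp2 forms the P-stalk that recruits elongation factors, at a mean of 1330 FPKM over the 9 libraries. Rpl36 followed at 1238, Rps15 at 900.0, Rpl8 at 517 and Rpl28 at 470 FPKM, while the P-stalk partners Rplp0 and Rplp2 had 303 and 102 FPKM. Lowest, under 1 FPKM, were Rpl36al at 0.793 and Rpl39l at 0.0202, and Rpl10l had no read, where a floor of 3 reads corresponds to 0.112 to 0.202 CPM (reads scaled to library size) depending on the library. Rpl10l and Rpl39l are known from testis.
The order depends on the gene length used. The deposited lengths span all exons of a gene and were a median of 2.31 times the length of its principal transcript, so that Rpl35a, a 60S protein picked here after its ranks were seen, ranked 59 of 86 by FPKM and 18 by CPM per kilobase of principal transcript. Rplp1 and Rpl36 ranked 1 and 2 by both.

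**Figure D1:**
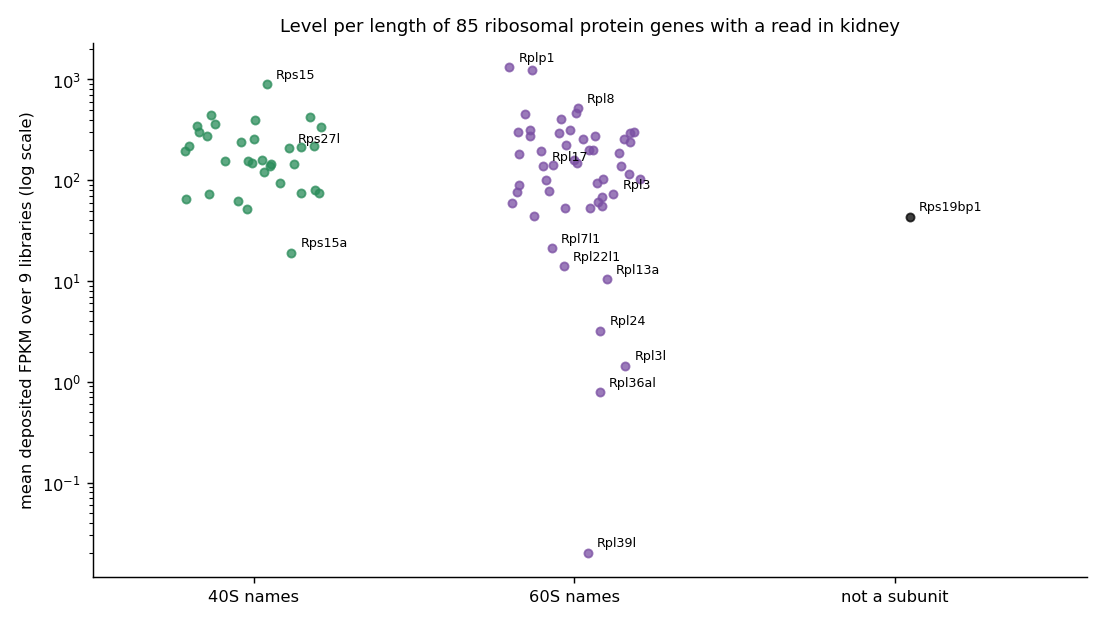
Mean deposited FPKM over 9 libraries (log axis) of the 85 members with a read, split by 40S names, 60S names and Rps19bp1; each point is a gene. Rpl24, Rpl3l, Rpl36al and Rpl39l lie below 10 FPKM, all with 60S names.

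Libraries held 16367403 to 25787659 counted reads. Reads of the 37 mitochondrial DNA-encoded genes took 20.8, 28.8 and 24.9% of the C59A libraries, 25.3, 20.5 and 40.6% of the C59S libraries and 19.6, 18.8 and 16.4% of the WT libraries, so every knock-in library lay above every WT library. Nfkb1 itself, where the substitution changes no read count by design and so checks nothing, had 29.2 to 39.7 CPM in C59A, 36.9 to 39.7 CPM in C59S and 32.2 to 36.8 CPM in WT. The Y-linked gene Ddx3y had 43.2 to 46.9 CPM in the C59A libraries, and no more than 0.81 CPM in the C59S and 0.0954 CPM in the WT libraries, while Xist had at most 0.725 CPM in C59A, at least 885 CPM in C59S and at least 816 CPM in WT. C59A against either other genotype is therefore also a comparison of libraries with and without Y-linked reads, and genotype and sex cannot be told apart there. The kidney markers Lrp2 (proximal tubule) and Umod (thick limb) were present in every library, at no less than 586 and 361 CPM.

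The members moved together from library to library, and 1 WT library stood apart. Their summed level, in CPM scaled by TMM factors, was 24770, 24890 and 28440 in C59A, 26600, 27450 and 28780 in C59S, and 21900, 21550 and 29110 in WT. WT replicate 3 had the highest sum of all and the other two WT libraries the lowest, so WT overlapped both knock-ins. Means were 26030 ± 2085 CPM in C59A, 27610 ± 1099 in C59S and 24190 ± 4267 in WT (SD, n = 3 each). In bulk tissue, fewer cells of a type and less RNA per cell cannot be told apart.
The subunits kept a steady ratio. Summed 40S over summed 60S CPM was 0.720, 0.721 and 0.721 in C59A, 0.716, 0.708 and 0.706 in C59S, and 0.718, 0.713 and 0.733 in WT, so C59S lay below C59A, and WT overlapped both. Over the 9 libraries the median Pearson correlation between pairs of members was 0.65 (3486 pairs, 3302 above 0), a description in which all pairs share the same libraries and scaling. The median SD of a member's log2 CPM within a group was 0.14 in C59A, 0.10 in C59S and 0.27 in WT. After the library's own median was taken off, it was 0.08, 0.08 and 0.11.

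**Figure D2:**
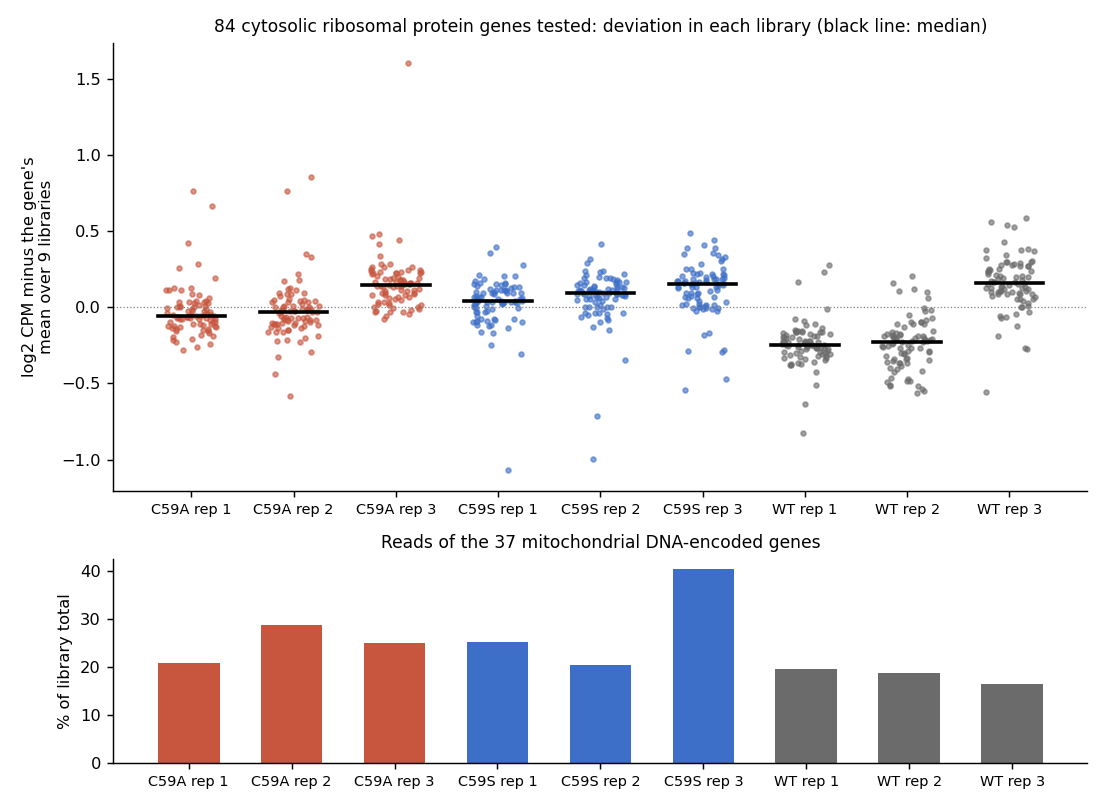
Top: log2 CPM of each of the 84 tested members minus its mean over 9 libraries, with the library median as a black line; bottom: share of reads from 37 mitochondrial DNA-encoded genes in percent. The medians of WT replicates 1 and 2 were -0.25 and -0.23, those of the C59A libraries -0.05, -0.03 and 0.15, those of the C59S libraries 0.04, 0.09 and 0.15, and that of WT replicate 3 was 0.16.

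The first question was which ribosomal protein genes differed in C59A kidneys from WT. Rpl17, a 60S protein at the exit tunnel, and Rpl3l rose, and no member fell. These 2 calls are 2.38% of the 84 members tested, against 5.7% of all 17114 genes tested (edgeR quasi-likelihood test, Benjamini-Hochberg adjusted p under 0.05; 3.24% higher and 2.46% lower, or 1.26% and 5.04% when scaled by library totals alone). At an unadjusted p under 0.05, 6 members were higher (7.14%, against 10.3% of all genes) and 0 lower, so members were called no more often than other genes. Shares of all genes called higher and lower were 4.78 and 3.88% in DESeq2, 3.28 and 2.72% in limma voom, 3.29 and 2.46% with reads summed over copies, and 1.45 and 0.906% in a fit of the 2 groups paired by replicate number, which called 0 members. With TMM scaling, 68 of the 84 log2 fold changes were above 0 (81%, against 47.6% of all genes) and the median was 0.11, against -0.02 over all genes tested, whereas scaling by library totals alone shifted the median of all genes to -0.26 and that of the members to -0.13, with 13 members above 0. Both subunits were alike, with medians of 0.08 for 33 members with 40S names and 0.11 for 50 with 60S names. The members' median depended on single libraries. It was 0.25 (82 of 84 above 0) without WT replicate 3, 0.04 (57 above 0) without C59A replicate 3, 0.04 (54) without WT replicate 1 and 0.05 (55) without WT replicate 2. Without WT replicate 3, the library that stood apart, edgeR called 3 members (2.35% of all genes higher and 2.47% lower). That library had the highest summed member level, so leaving it out lowers the members' summed level in WT by construction. No member was called without C59A replicate 3, WT replicate 1 or WT replicate 2.
Groups did not overlap, with C59A above WT, for 7 members (8.33%, against 12.6% of all genes), and for none with C59A below WT (12% of all genes). Besides Rpl17 and Rpl3l these were Rpl13a, Rps27l, Rps19bp1, Rpl22l1 and Rpl36al, which did not pass the test. The lowest fold changes, of Rps28 (log2 -0.17 ± 0.18 SE), Rps4x (-0.15 ± 0.17), Rpl3 (-0.14 ± 0.15), Rpl24 (-0.13 ± 0.26) and Rps21 (-0.11 ± 0.20), were each no larger than their SE and did not pass.

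**Figure D3:**
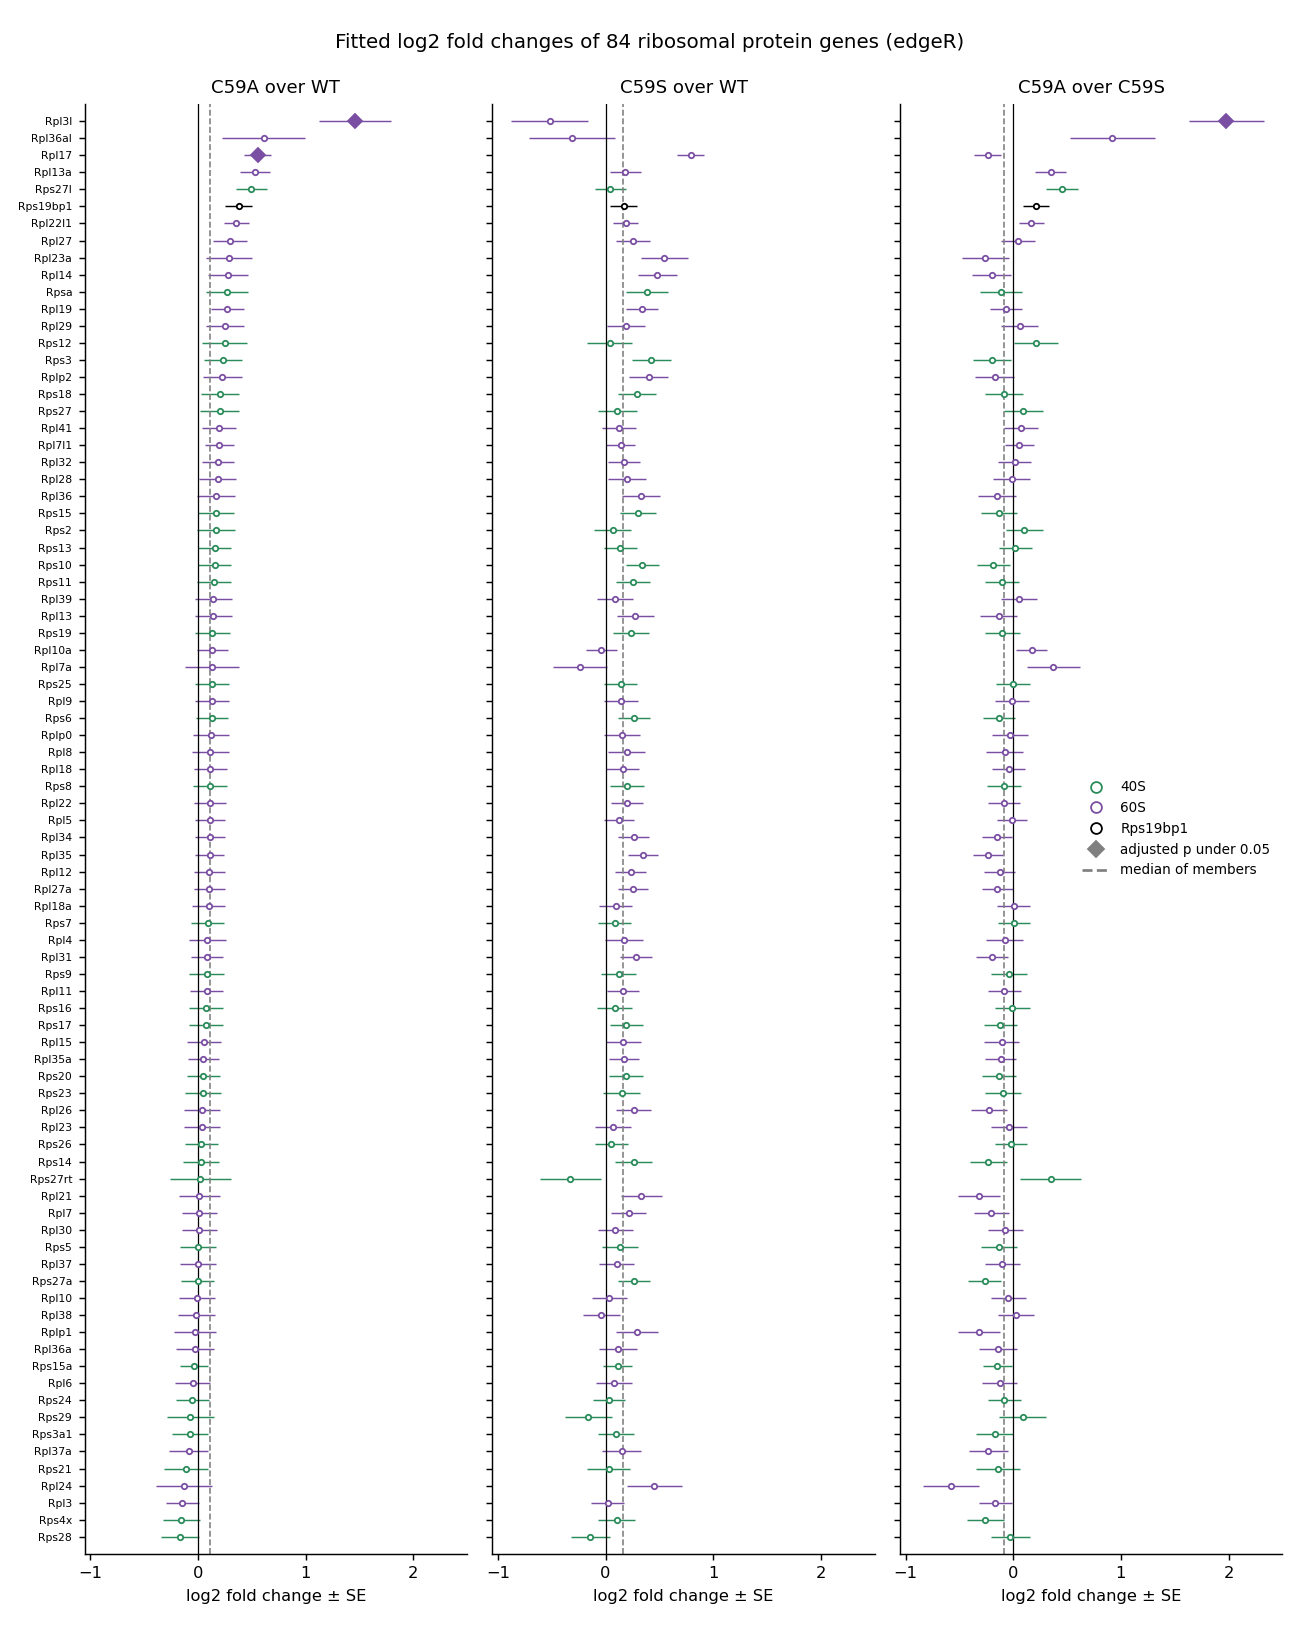
Fitted log2 fold change ± SE (edgeR) of the 84 tested members for C59A over WT, C59S over WT and C59A over C59S, sorted by the first; diamonds mark adjusted p under 0.05 and the dashed line the members' median. Rpl17 and Rpl3l are called in the first panel, none in the second and Rpl3l in the third. Medians are 0.11, 0.16 and -0.08, and -0.13, -0.04 and -0.12 with library totals in place of TMM. Over all genes tested they are -0.02, 0.01 and -0.01, and -0.26, -0.19 and -0.05 with library totals.

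Rpl17, on chromosome 18, was higher in both knock-ins. It had 107, 108 and 125 CPM in the C59A libraries, 138, 123 and 139 CPM in the C59S libraries, and 73.6, 70.9 and 86.9 CPM in the WT libraries. All 6 knock-in libraries lay above the 3 WT libraries, while the C59A and C59S libraries overlapped. In FPKM the means were 145 ± 14.6 in C59A, 170 ± 10.9 in C59S and 97.6 ± 11.1 in WT (SD, n = 3 each).
The log2 fold change of C59A over WT was 0.55 ± 0.13 (SE; edgeR adjusted p = 0.0256). The call was lost without C59A replicate 1 (adjusted p = 0.0584), C59A replicate 3 (0.0989), WT replicate 1 (0.0897) or WT replicate 2 (0.0879), with fold changes of 0.48 to 0.60 on the log2 scale, and with library totals alone (0.31, edgeR adjusted p = 0.282). For C59S over WT the log2 fold change was 0.79 ± 0.13, with an unadjusted p of 4.87e-05 and an edgeR adjusted p of 0.112. It passed in a fit of these 2 groups paired by the replicate number of their titles (0.78, edgeR adjusted p = 0.0321), though no label states a pairing. That fit called 638 genes where the unpaired one called none. The deposited column names number the libraries otherwise, and C59S and WT libraries of equal replicate number never share a column number. Rpl17 also passed in DESeq2 (0.79, adjusted p = 6.46e-05) and without WT replicate 3 (0.89, edgeR adjusted p = 0.0155). C59A over C59S gave -0.24 ± 0.13 (edgeR adjusted p = 0.295). With the mitochondrial share of reads as a covariate, the fold changes were 0.53 in C59A over WT (edgeR adjusted p = 0.109) and 0.75 in C59S over WT (adjusted p = 0.844). Rpl17 was singled out with earlier results of these data known, so its p-values are no independent evidence.

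Rpl17 shares most of its sequence with processed pseudogenes that together held more reads than the gene. Of its 676 windows of 100 bases, 521 (77.1%) also occurred in another transcript of GENCODE M21. AC147029.1, at chr12:67510756-67511311 on the plus strand, matched Rpl17 at 554 of 556 bases (99.6%) and held 29195 reads over the 9 libraries. Rpl17-ps10, at chr7:72648757-72649311 on the minus strand, matched at 551 of 555 bases (99.3%) and held 15612 reads, while Rpl17 itself held 19759. Together 7 such rows held 70.7% of the reads of Rpl17 and its copies. How reads that match several places were counted is not given in the sources used here.
AC147029.1 had 141, 161 and 185 CPM in C59A, 161, 187 and 194 CPM in C59S, and 132, 122 and 154 CPM in WT. The C59S libraries lay above WT and the C59A libraries overlapped WT, and neither fold change passed (log2 0.26 ± 0.15, edgeR adjusted p = 0.352, in C59A over WT and 0.41 ± 0.15, adjusted p = 0.196, in C59S over WT). Rpl17-ps10 ran the other way, with 79.3, 56.4 and 89.7 CPM in C59A, 50.5, 98.6 and 62.4 CPM in C59S, and 85.1, 114 and 127 CPM in WT. Its groups overlapped and it did not pass either (log2 -0.53 ± 0.26, edgeR adjusted p = 0.278, in C59A over WT and -0.63 ± 0.26, adjusted p = 0.247, in C59S over WT).

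Within the reads of Rpl17 and its copies, the share assigned to Rpl17 separated both knock-ins from WT but not from each other. It was 31.5, 31.7 and 30.0% in C59A, 37.5, 29.0 and 33.5% in C59S, and 24.2, 22.2 and 22.7% in WT. Every knock-in library lay above every WT library, and the closest, C59S replicate 2 (exact binomial 95% interval 28.0 to 29.9%) and WT replicate 1 (23.2 to 25.2%), had intervals that did not touch, though these cover counting error only. Means were 31.1 ± 0.948% in C59A, 33.3 ± 4.26% in C59S and 23.0 ± 1.03% in WT (SD, n = 3 each). An exact two-sided permutation test gave p = 0.1 for each knock-in against WT, the smallest p that 3 against 3 libraries allow, and p = 0.5 for C59A against C59S.
The share assigned to Rpl17-ps10 was 23.3, 16.6 and 21.5% in C59A, 13.7, 23.2 and 15.04% in C59S, and 27.9, 35.9 and 33.2% in WT, lower in every knock-in library than in any WT library (exact p = 0.1 for each, n = 3 per group). Summed over Rpl17 and its copies, the level was 340.4, 339 and 417 CPM in C59A, 368, 425 and 415 CPM in C59S, and 304.5, 319 and 383 CPM in WT, with overlap between all groups. The means were 365 ± 44.2 CPM in C59A, 403 ± 30.4 in C59S and 336 ± 41.9 in WT (SD, n = 3 each), with exact permutation p = 0.5 for C59A against WT and 0.2 for C59S against WT. When the reads of every member were summed with those of its copies before the fit, Rpl17 gave log2 0.13 ± 0.15 in C59A over WT (edgeR adjusted p = 0.697) and 0.27 ± 0.15 in C59S over WT (adjusted p = 0.379). Neither passed. The copies without Rpl17 averaged 252 ± 34.2 CPM in C59A, 269 ± 36.3 in C59S and 258 ± 34.0 in WT (SD, n = 3 each) and overlapped. Sums mix the gene with copies that held more reads, so the summed fit does not give the fold change of the gene itself. Whether the RNA of the Rpl17 locus or the placement of its reads differed was not tested.

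**Figure D4:**
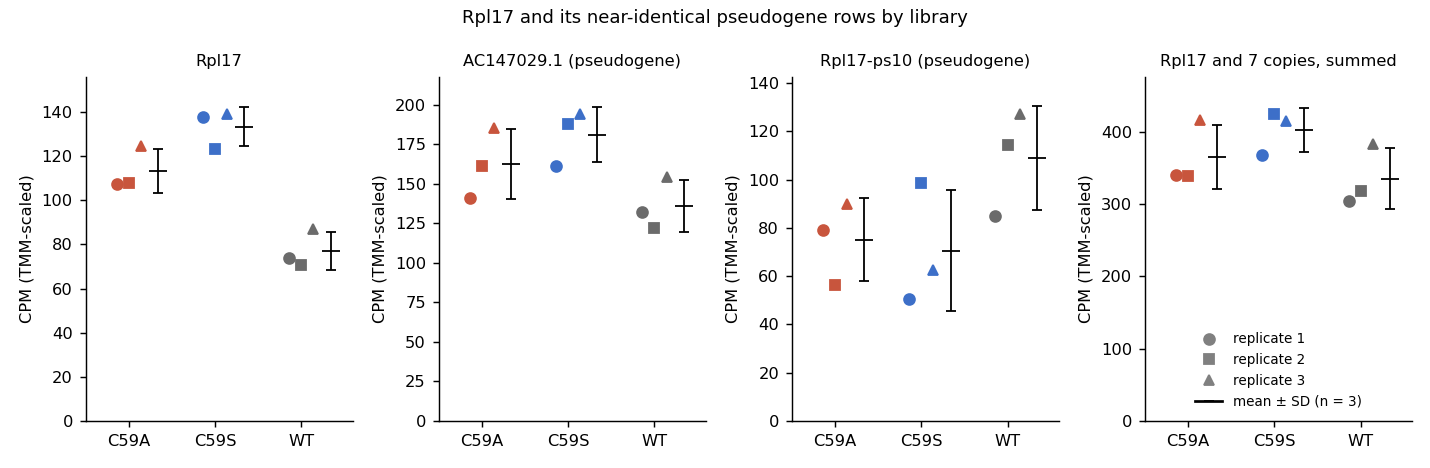
CPM (TMM-scaled) of Rpl17, of its pseudogene rows AC147029.1 and Rpl17-ps10, and of Rpl17 summed with its 7 copies, in each library, with mean ± SD (n = 3). Rpl17 lies at 107 to 139 CPM in the knock-ins and 70.9 to 86.9 CPM in WT, Rpl17-ps10 is highest in WT replicates 2 and 3, and the sums overlap.

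Among 64 members with at least 1 pseudogene row sharing 50 or more windows of 100 bases, such rows held a median of 5.36% of the reads of gene and copies. The share was over 20% for 8 members, led by Rpl24 (76.2%), Rpl17 (70.7%), Rpl36al (47.5%) and Rpl7a (42.4%), and under 5% for 29. The copy share of 1 of the 64, Rpl17, lay lower in every C59A and every C59S library than in any WT library, and 0 of the 64 lay higher in both. For Rpl17 this is the remainder of the share given above, so it adds no further evidence. How many of 64 would separate by the order of libraries alone was not tested. For the 20 tested members without copy rows, the median log2 fold change was 0.18 in C59A over WT and 0.17 in C59S over WT, and for the 64 with copy rows it was 0.09 and 0.16.
Levels of some members are also bounded by overlapping annotation. Rpl24, a 60S protein of the bridge between subunits, had only 3.22 FPKM, and 71.5% of its principal transcript is overlapped on the same strand by Gm28037, which had 0 reads in every library. Rpl36al is overlapped over 63.1% by AC099934.3 and Rpl13a over 59.3% by Gm45713, each with 0 reads as well. Their counts are therefore uncertain as levels, and how the authors' counting treated reads in 2 genes is not given in the sources used here.

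The clearest change of a paralog was in Rpl3l, which encodes a stand-in for Rpl3 in the ribosomes of heart and skeletal muscle. Rpl3l had 3.44, 3.68 and 6.25 CPM in C59A (57, 65 and 131 reads), 0.895, 0.947 and 1.62 CPM in C59S (24, 21 and 24 reads), and 1.60, 1.36 and 1.91 CPM in WT (38, 27 and 40 reads). Every C59A library lay above all C59S and WT libraries, and C59S overlapped WT. No 100-base window of its transcript occurred in another gene.
Rpl3l rose by log2 1.46 ± 0.34 in C59A over WT (edgeR adjusted p = 0.0276) and by 1.98 ± 0.35 in C59A over C59S (adjusted p = 0.00854), and gave -0.52 ± 0.36 in C59S over WT (adjusted p = 0.463). Against WT the call was lost without C59A replicate 3 (1.13, edgeR adjusted p = 0.135), WT replicate 1 (1.45, 0.0969) or WT replicate 2 (1.35, 0.0795), and with the mitochondrial share as a covariate (1.22, 0.133). Against C59S it held without any single library of either genotype (edgeR adjusted p at most 0.0458). Even in C59A the level was low, at a mean of 2.69 ± 0.974 FPKM (SD, n = 3). Rpl3 itself, at a mean of 73.1 FPKM over all libraries, had 209.9, 209 and 225 CPM in C59A, 212, 254 and 257 CPM in C59S, and 196, 239 and 277 CPM in WT, with overlap between all groups.

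Rps27l had 184, 216 and 234 CPM in C59A, 158, 168 and 138 CPM in C59S, and 130.3, 149 and 169 CPM in WT. All C59A libraries lay above the others, but the edgeR test did not pass (log2 0.50 ± 0.15, adjusted p = 0.0737, over WT and 0.45 ± 0.15, adjusted p = 0.0964, over C59S), while DESeq2 called both (adjusted p = 0.0175 and 0.0356). Rps27, with 248, 340.1 and 287 CPM in C59A, 302, 280.3 and 238 CPM in C59S, and 214, 233 and 314 CPM in WT, overlapped throughout. A further row, Rps27rt, a retrogene of Rps27, ranged from 35.1 to 69.9 CPM in C59A, 36.1 to 43.0 CPM in C59S and 32.8 to 65.1 CPM in WT, and 89.5% of its 100-base windows occurred in another transcript, as did 98.4% of those of Rps27.
Rpl22l1, whose protein can replace Rpl22, had 30.4, 30.5 and 34.2 CPM in C59A, 26.4, 28.2 and 30.3 CPM in C59S, and 22.3, 26.3 and 25.8 CPM in WT. The 3 groups did not overlap, yet no fold change passed (log2 0.36 ± 0.12 in C59A over WT, edgeR adjusted p = 0.102). Rpl22 gave 0.11 ± 0.15 in the same comparison (adjusted p = 0.719). Rpl7l1, which acts in 60S assembly, gave 0.20 ± 0.14 (adjusted p = 0.443), beside 0.01 ± 0.16 for Rpl7 (adjusted p = 0.973).

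Rpl36al had 1.27, 1.81 and 1.43 CPM in C59A, 1.08, 0.587 and 0.675 CPM in C59S, and 1.26, 1.01 and 0.667 CPM in WT. The highest value in WT lay just under the lowest in C59A, and with 199 reads in all no fold change passed (log2 0.61 ± 0.39 in C59A over WT, edgeR adjusted p = 0.399, and 0.92 ± 0.39 in C59A over C59S, adjusted p = 0.189). Its parent Rpl36a gave -0.03 ± 0.18 in C59A over WT (edgeR adjusted p = 0.949). Rpl13a, which in human cells also takes part in silencing of inflammatory messenger RNAs, had 29.5, 24.8 and 26.7 CPM in C59A, 21.1, 20.9 and 21.8 CPM in C59S, and 17.4, 15.9 and 22.8 CPM in WT.
All Rpl13a values in C59A were above those of C59S and WT, at log2 0.53 ± 0.14 over WT (edgeR adjusted p = 0.0527) and 0.35 ± 0.14 over C59S (adjusted p = 0.176). Against WT it passed in DESeq2 (adjusted p = 0.0253), in limma voom (0.0222) and in edgeR without WT replicate 3 (0.70, adjusted p = 0.0151). It also passed narrowly in edgeR without a filter (adjusted p = 0.0457) and with protein-coding genes only (adjusted p = 0.0487). Rps19bp1 had 39.3, 37.3 and 48.7 CPM in C59A, 35.6, 35.4 and 37.4 CPM in C59S, and 30.7, 31.2 and 34.7 CPM in WT. Both knock-ins lay above WT, without passing (log2 0.38 ± 0.12 in C59A, edgeR adjusted p = 0.101, and 0.17 ± 0.12 in C59S, adjusted p = 0.494).

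**Figure D5:**
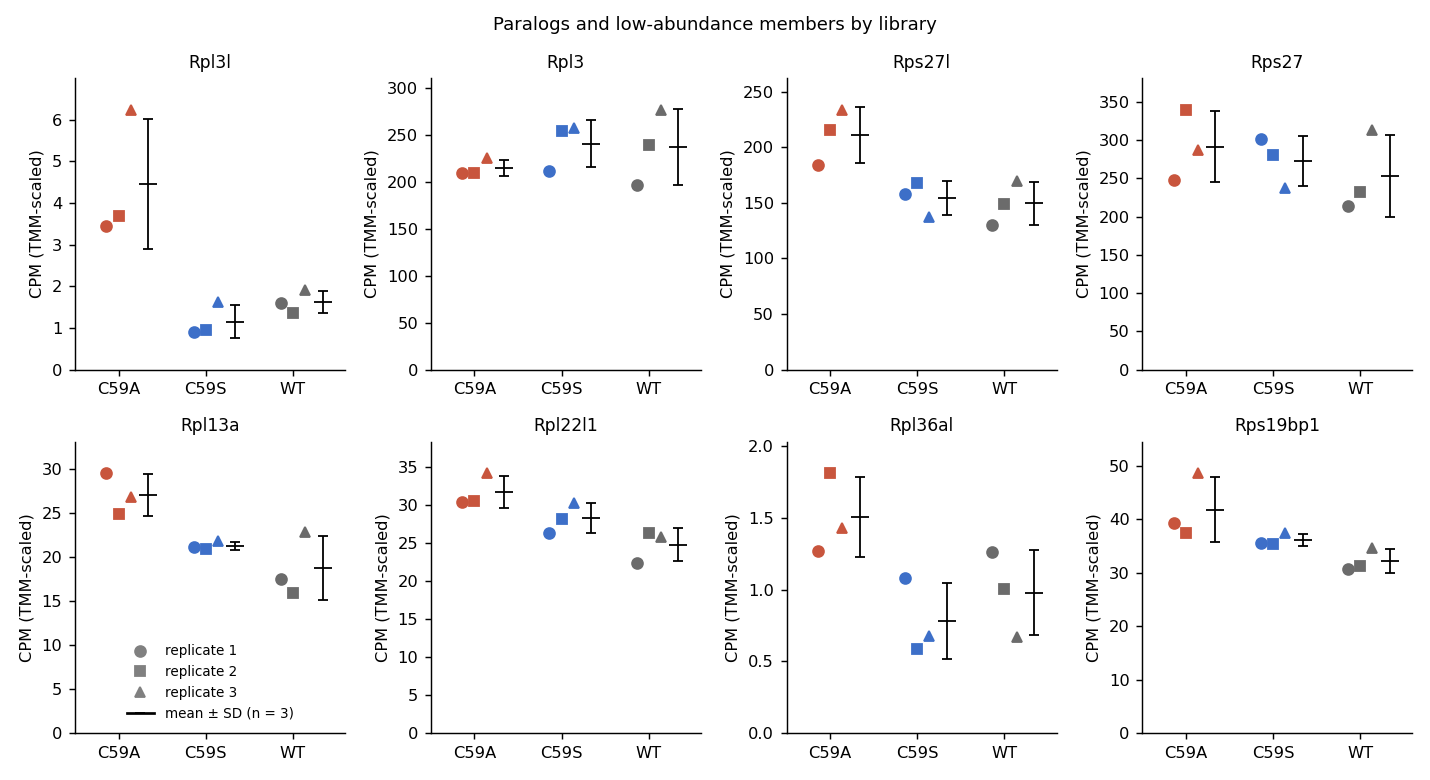
CPM (TMM-scaled) by library of Rpl3l, Rpl3, Rps27l, Rps27, Rpl13a, Rpl22l1, Rpl36al and Rps19bp1, with mean ± SD (n = 3). Rpl3l lies at 3.44 to 6.25 CPM in C59A and at most 1.91 CPM elsewhere, while Rpl3 overlaps between all genotypes.

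The second question was how C59S kidneys differed from WT. It uses the same WT libraries as the comparison above. No member passed, as no gene of the whole table did (0% of 17114 in edgeR, with 18.1% at an unadjusted p under 0.05). DESeq2 called 1 member, Rpl17, and 626 of 17320 genes (1.47% higher and 2.14% lower), limma voom called 0, and edgeR with library totals alone called 0 members and 20 genes (0.0117% higher and 0.105% lower). In the fit paired by replicate number, edgeR called 1 member, Rpl17, beside 1.48% of all genes higher and 2.34% lower. At an unadjusted p under 0.05, 8 members were higher (9.52%, against 8.23% of all genes) and 0 lower (9.84% of all genes). Besides Rpl17 these were Rpl23a, Rpl14, Rps3, Rplp2 and, named after their values were seen, Rpl35, Rps10 and Rpl19. The median log2 fold change was 0.16, against 0.01 over all genes, with 76 of 84 above 0 (90.5%, against 51.1%), and with library totals alone it was -0.04 against -0.19, with 28 above 0.
Groups did not overlap, with C59S above WT, for 11 members (13.1%, against 11.2% of all genes). The median was 0.32 without WT replicate 3, and 0.10 without WT replicate 1 or WT replicate 2. Without WT replicate 3 edgeR called 3 members among 737 genes (1.24% of all genes higher and 2.93% lower), namely Rpl17, Rps3, which lines the messenger RNA entry of the 40S subunit (0.66, adjusted p = 0.0385), and Rpl21, a 60S protein (0.62, adjusted p = 0.0415). As above, leaving out the WT library of highest member level lowers the members' summed level in WT by construction.
Rps3 had 380, 373 and 423 CPM in C59S, and 261, 236 and 377 CPM in WT, so that WT replicate 3 lay among the C59S libraries (log2 0.43 ± 0.18 with all libraries, edgeR adjusted p = 0.239). Rpl14, a 60S protein, had 511, 449.8 and 629 CPM in C59S, and 403, 307 and 429.6 CPM in WT, without overlap (0.48 ± 0.18, edgeR adjusted p = 0.214). Rpl23a, which docks the signal recognition particle at the exit tunnel, had 94.5, 115 and 108 CPM in C59S, and 48.9, 96.9 and 72.1 CPM in WT, and overlapped (0.55 ± 0.22, edgeR adjusted p = 0.226). About 55.4% of its principal transcript lies opposite Tlcd1 on the other strand, so its reads are uncertain if strand was not used. Of the P-stalk, Rplp2 gave 0.40 ± 0.18, Rplp1 0.29 ± 0.20 and Rplp0 0.16 ± 0.17, none passing (edgeR adjusted p = 0.269, 0.454 and 0.655). The lowest fold changes were those of Rpl3l, Rps27rt (-0.33 ± 0.28), Rpl36al (-0.31 ± 0.40), Rpl7a (-0.24 ± 0.25) and Rps29 (-0.16 ± 0.22). Rpl24, whose C59S libraries lay above WT, gave 0.45 ± 0.26 (edgeR adjusted p = 0.376).

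The third question was how the alleles differed from each other. Rpl3l was the only member called, 1.19% of 84, against 5.91% of all genes (3.35% higher in C59A and 2.56% lower). With library totals alone, 1.84% of all genes were higher and 2.07% lower. At an unadjusted p under 0.05, 4 members were higher (4.76%, against 11% of all genes) and 1 lower (1.19%, against 11.9% of all genes). The median log2 fold change of C59A over C59S was -0.08, against -0.01 over all genes, with 23 of the 84 above 0 (27.4%, against 49% of all genes). In 14 members every C59A library lay below every C59S library (16.7%, against 14.5% of all genes), and in 6 every C59A library lay above (7.14%, against 14.7%).
The lowest was Rpl24, with 3.14, 2.15 and 3.15 CPM in C59A, and 4.22, 4.11 and 4.32 CPM in C59S (log2 -0.58 ± 0.26, edgeR adjusted p = 0.211), beside 3.88, 2.46 and 2.86 CPM in WT. The C59A libraries overlapped WT, and the C59S libraries lay above both. Rplp1, Rpl21, Rps27a and Rpl23a came next, at -0.32 ± 0.20, -0.32 ± 0.19, -0.27 ± 0.15 and -0.26 ± 0.21, none passing. Rps27a encodes a 40S protein fused to ubiquitin, and its library values ranged from 116 to 172 CPM in C59A and 170 to 191 CPM in C59S. At the other end, after Rpl3l, Rpl36al and Rps27l, stood Rpl7a (0.37 ± 0.25) and Rps27rt (0.35 ± 0.28), also not passing, while DESeq2 called Rps27l beside Rpl3l.

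Over the 9 libraries, Rpl19 followed Rpl17 most closely in log2 CPM (Pearson r = 0.90), then Rps3 (0.86), Rpl35 (0.85), Rpl14 (0.85) and Rpl27a (0.84). The least alike were Rps27rt (-0.20), Rpl36al (-0.12), Rpl7a (-0.10), Rps28 (0.00) and Rpl3l (0.06). These are descriptions over libraries that share depth and scaling. Against the median of all members, Rpl17 itself had r = 0.74.

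Ribosome genes outside the name rule were looked at as well. Fau, whose product carries a 40S protein, gave 0.13 ± 0.18 and Rack1, on the 40S head, 0.19 ± 0.16 on the log2 scale in C59A over WT, and neither passed in any comparison. Of 18 further genes listed as TOP-type, 0 passed in any comparison, with medians of 0.21 in C59A over WT and 0.13 in C59S over WT. That list mixed genes for translation factors and other proteins with the noncoding RNA genes Gas5 and Snhg1.
Of 58 ribosome assembly genes, 4 rose in C59A over WT and 0 fell, where 3.24% of all genes were called higher and 2.46% lower. The same shares stand behind the other list counts for C59A over WT, and 3.35% and 2.56% behind those for C59A over C59S. Nhp2, a core protein of the snoRNPs that guide pseudouridine in ribosomal RNA, had 84.1, 95.4 and 104 CPM in C59A, 55.4, 49.8 and 42.6 CPM in C59S, and 43.5, 35.4 and 37.1 CPM in WT. The C59A libraries lay far above the others (log2 1.29 ± 0.14, edgeR adjusted p = 0.000326, over WT and 0.94 ± 0.14, adjusted p = 0.0027, over C59S). The RNA helicase gene Ddx21 (0.59 ± 0.13, edgeR adjusted p = 0.0242), the box C/D snoRNP gene Nop58 (0.56 ± 0.13, 0.0288) and the 60S maturation gene Sbds (0.46 ± 0.11, 0.0321) also rose over WT. Over C59S, the 4 that rose were Nhp2, Nop58, Gnl3 (0.58 ± 0.14, edgeR adjusted p = 0.0309) and Utp20 (0.78 ± 0.19, 0.0366), and in C59S over WT 0 of the 58 passed.

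Of 27 initiation factors, 0 passed in C59A over WT, where 25 were above 0 with a median of 0.20, and 1, Eif5, which triggers GTP hydrolysis at the start codon, rose in C59A over C59S (0.44 ± 0.12, edgeR adjusted p = 0.0462). Among 20 regulators of ribosomal protein synthesis, Mtor, the kinase upstream of TOP translation, had 186, 242 and 224 CPM in C59A, 127, 108 and 99.2 CPM in C59S, and 122, 143 and 95.5 CPM in WT. The C59A libraries did not overlap the others (log2 0.86 ± 0.17, edgeR adjusted p = 0.0133, over WT and 0.97 ± 0.17, adjusted p = 0.00861, over C59S). Eif4ebp3, a repressor of cap-dependent initiation, also rose in C59A over C59S (2.24 ± 0.44, edgeR adjusted p = 0.0148). Its level was low, at 1.45, 1.59 and 1.72 CPM in C59A, and 0.522, 0.226 and 0.202 CPM in C59S. The value of C59S replicate 3 was at the floor of 3 reads, 0.202 CPM in that library. WT had 1.05, 1.31 and 0.763 CPM.
Of 14 p53 and nucleolar stress genes, Ccng1, a p53 target, rose (0.66 ± 0.16, edgeR adjusted p = 0.0368) and Mdm4, an inhibitor of p53, fell (-0.57 ± 0.15, 0.0464) in C59A over WT, and 0 passed in the other comparisons. Of 77 mitochondrial ribosomal protein genes tested, Mrpl47 alone was called (0.59 ± 0.12, edgeR adjusted p = 0.0175, C59A over WT). Of 78 tested rows named as ribosomal protein pseudogenes, Rpl29-ps2 fell in C59A over WT (-1.96 ± 0.49, edgeR adjusted p = 0.037) and Rpl34-ps1 fell in C59A over C59S (-0.64 ± 0.16, 0.0396). Rpl29-ps2 was low, at 0.483, 0.283 and 0.524 CPM in C59A, and 1.18, 2.41 and 1.53 CPM in WT. All of these fold changes involving C59A carry the same tie to Y-linked reads.

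Marker genes of kidney and other cell types were summed by library. The summed level of 10 proximal tubule markers was 11840 to 16220 CPM in C59A, 11480 to 15350 in C59S and 17650 to 18540 in WT, with 1 marker called higher and 1 lower in C59A over WT and 0 in C59S over WT. That of 6 adipocyte markers was 162 to 268 CPM in C59A, 152 to 1249 in C59S and 27.4 to 63.5 in WT, with 0 of 6 called in any comparison and 5 of 6 at an unadjusted p under 0.05 in each knock-in against WT. Summed endothelial markers were 403 to 495 CPM in C59A, 691 to 934 in C59S and 268 to 624 in WT (0 of 8 called against WT and 2 of 8 lower in C59A over C59S). Of the listed markers of collecting duct, thick and distal tubule, podocytes, fibroblasts with smooth muscle, and leukocytes, 2 of 8, 2 of 6, 1 of 6, 0 of 10 and 0 of 12 were lower in C59A over WT, and 3 of the 12 leukocyte markers were higher. Outside the leukocyte list, every listed marker passed the filter on low counts. The 12 leukocyte names matched 13 rows, of which 12 passed. The part of any of these markers in the ribosomal protein values was not tested.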

How the data were processed

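Per the labels' protocols, TRIzol was used to extract kidney total RNA, and libraries were prepared by the NEBNext Ultra kit. GRCm38, CASAVA 1.8, fastp, HISAT2 2.0.5, DESeq2 1.20.0 and featureCounts 1.5.0-p3 are named in the submitters' processing notes; strand, annotation release and the counting of reads that match several places are not given in the sources used here. The deposited counts per gene are raw whole numbers made by the authors, and the deposited FPKM are the authors' counts per length and depth, per the file headers and values.

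Counts of all 9 libraries (16367403 to 25787659 reads each) were fitted in 1 model in R 4.3.3 with edgeR 4.0.16 (filterByExpr, TMM factors, robust quasi-likelihood test); p-values were adjusted over 17114 genes and called under 0.05. The step was checked on counts simulated without shifts of whole libraries and with larger fold changes than most members had. That check does not cover smaller changes or such shifts. CPM use the TMM-scaled library total. Log2 CPM for correlations used a prior count of 2. No libraries of a genotype were duplicates (chi-square per degree of freedom 24.7 or more). Copies are pseudogene transcripts of GENCODE M21 that share at least 50 windows of 100 bases with a member's principal transcript. The coordinates of 76 of 86 members were the same there as in the deposited table, and Rpl17 was not among these 76. Promoter windows came from RefSeq. Summing reads over these copies was chosen after seeing the data. Alternatives used DESeq2 1.42.0, limma 3.58.1 (voom, or log2(FPKM + 1) and log2(FPKM + 0.1)), other scalings and filters, and left out each library.

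No label says that replicate numbers in the titles pair libraries. The deposited column names carry other numbers, which differ between C59S and WT libraries of equal replicate number. For C59S and WT, deviations from the group means correlated at 0.32, 0.20 and 0.26 for equal numbers, all above 0.1. For the other comparisons none of the correlations for equal numbers was above 0.1. Unequal numbers reached 0.29 there (C59A replicate 2 with C59S replicate 1) and 0.18 (C59A replicate 2 with WT replicate 1). Between C59S and WT, the highest for unequal numbers was 0.0085. Such correlations do not show a pairing by themselves.

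The members, Rpl17 and the gene lists were chosen with earlier results of these data known. Named were Rpl17, called members, the 5 highest and 5 lowest fold changes per comparison among members of at least 1 CPM, the 5 of highest FPKM and those under 1 FPKM, paralogs, the P-stalk, the 5 most and least like Rpl17, and listed genes of smallest p. Pathway genes follow lists, and fewer than the rule allows are named where none passed. Protein sequences of the paralogs were not used here. A listed gene is not reported here.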

Additional observations from a re-analysis of the deposited data

How the results depend on the processing

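In C59A over WT, the 2 calls among the members became 1 with library totals alone, with only the 2 groups compared, with reads summed over named pseudogene rows or over all copies, and in limma on log2(FPKM + 0.1). They became 0 with the replicate block in a fit of the 2 groups, with the mitochondrial covariate, in limma on log2(FPKM + 1) without a filter and at an adjusted p under 0.01, and 4 in DESeq2 and at an adjusted p under 0.1. Without a filter, with protein-coding genes only and in limma voom they became 3, each time with Rpl13a added. Leaving out each library gave 0 to 3. Rpl17 then no longer passed with library totals (log2 0.31), the 2 groups alone (0.55), the 2-group replicate block (0.56), the mitochondrial covariate (0.53), named pseudogene rows (0.027), all copies (0.13), log2(FPKM + 0.1) (0.57) and log2(FPKM + 1) without a filter (0.57), and ranged from 0.48 to 0.65 without single libraries. The members' median was -0.13 with library totals, under which the median of all genes was -0.26, and 0.04 to 0.25 without single libraries.

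In C59S over WT, 0 calls became 1, Rpl17, without a filter (0.79), with the 2-group replicate block (0.78) and in DESeq2 (0.79). Without single libraries there were 0 to 3 calls, and Rpl17 ranged from 0.73 to 0.89. The members' median was -0.036 with library totals, under which the median of all genes was -0.19. It was 0.10 to 0.32 without single libraries, the highest without WT replicate 3. In C59A over C59S the 1 call became 2 in DESeq2 and at an adjusted p under 0.1, and 0 in limma on log2(FPKM + 1) without a filter. Apart from construction (fewer samples, another threshold, summed reads), the cause of these moves was not tested.

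For equal replicate numbers, deviations did not correlate above 0.1 between C59A and WT (0.01, -0.09 and 0.05) or between C59A and C59S (-0.09, -0.29 and 0.05). Not every library was most like its own number. There the 2-group block moved the calls over all genes from 975 to 390 and from 1012 to 334. For C59S over WT, where equal numbers correlated above 0.1, the 2-group block raised the calls from 0 to 638 and the block over all 9 libraries left 0. Over all genes, C59A over WT had 975 calls and 1552 in DESeq2 and 434 with the mitochondrial covariate, and C59A over C59S had 1012, 1717 and 517. Depth limits Rpl3l, with 21 to 131 reads a library, and Rpl36al, with 199 reads in all.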
